A study of Mus musculus with 8 samples.

Results

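Microglia and macrophages were described in single-cell RNA libraries of 2 mouse medulloblastomas. They were selected on measured UMIs (unique molecular identifiers, each standing for 1 captured RNA molecule): at least 6 of 11 myeloid genes had to have a UMI in the cell. Cells under 500 genes or above 10% mitochondrial UMIs were left out. The 11 genes were C1qa, C1qb, C1qc, Csf1r, Cx3cr1, Trem2, Fcrls, Aif1, P2ry12, Ctss and Tyrobp. The rule found 30 cells among 7839 in the relapsed tumour and 227 among 9094 in the primary tumour, 257 of 16933 in all. Both tumours came from Patched 1 deficient mice, which lack normal control of the Hedgehog pathway and form medulloblastoma from the granule neuron lineage of the cerebellum. The relapsed library was labelled as taken at 3 weeks, and its free-text description named a primary tumour, so its title and source label were followed. The labels give neither the strain, age and number of animals, nor what preceded relapse, nor the allele or promoter behind the deficiency. They name papain dissociation and a flow cytometric sort of tumour cells and astrocytes, and no gate for myeloid cells. With 1 library per tumour there are no replicates: every interval below covers counting error only, no p-value is given, and a difference between the tumours cannot be told apart from a difference between 2 libraries.

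Microglia are the resident macrophages of the brain parenchyma. They depend on signalling through the receptor Csf1r, and in the adult brain they carry genes such as P2ry12, Tmem119 and Sall1. Border macrophages of the meninges, choroid plexus and vessel walls carry Mrc1, Pf4, Cbr2, F13a1 and Lyve1, and cells from blood monocytes carry Ccr2 and Ly6c2. In diseased brain, microglia lower part of the first set and raise Apoe, Cst7, Gpnmb, Spp1 and Itgax, a change known to depend on Trem2 in mouse models of amyloid disease. Microglia and macrophages of medulloblastoma have been linked to growth signals for the tumour cells, Igf1 among them.

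The myeloid genes of the rule are controlled in part by PU.1, the product of Spi1, a transcription factor of the ETS family that binds purine-rich sites with the core GAGGAA. Promoter windows of 250 bases before the start, from RefSeq on GRCm38.p6, are shown for 3 rule genes, for Mrc1, the named gene with the highest ratio of relapsed over primary members, and for Cst7, a gene far lower in the relapsed tumour. Capitals mark GAGGAA, or TTCCTC where the match is on the other strand. Sequences run 5′ to 3′ along the strand of the gene.
C1qb, chr4:136886201-136886450, minus strand: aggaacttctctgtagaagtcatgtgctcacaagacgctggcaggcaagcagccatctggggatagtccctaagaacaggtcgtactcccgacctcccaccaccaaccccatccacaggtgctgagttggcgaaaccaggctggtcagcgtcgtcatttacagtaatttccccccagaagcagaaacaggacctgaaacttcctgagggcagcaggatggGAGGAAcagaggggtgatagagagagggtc
Ctss, chr3:95526536-95526785, plus strand: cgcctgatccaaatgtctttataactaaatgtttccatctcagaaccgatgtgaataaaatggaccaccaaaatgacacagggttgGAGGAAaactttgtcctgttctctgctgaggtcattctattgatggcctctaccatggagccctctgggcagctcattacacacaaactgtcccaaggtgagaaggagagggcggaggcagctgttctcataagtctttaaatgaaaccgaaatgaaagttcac
Trem2, chr17:48346151-48346400, plus strand: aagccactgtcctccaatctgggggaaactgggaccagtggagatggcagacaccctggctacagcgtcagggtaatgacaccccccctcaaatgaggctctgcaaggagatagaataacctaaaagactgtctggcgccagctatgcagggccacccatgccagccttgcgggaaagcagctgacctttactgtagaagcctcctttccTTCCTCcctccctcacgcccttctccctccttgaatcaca
Mrc1, chr2:14229164-14229413, plus strand: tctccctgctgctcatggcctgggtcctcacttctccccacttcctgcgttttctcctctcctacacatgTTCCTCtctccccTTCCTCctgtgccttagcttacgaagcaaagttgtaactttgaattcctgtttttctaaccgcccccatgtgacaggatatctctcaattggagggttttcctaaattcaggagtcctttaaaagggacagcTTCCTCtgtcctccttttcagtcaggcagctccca
Cst7, chr2:150570165-150570414, plus strand: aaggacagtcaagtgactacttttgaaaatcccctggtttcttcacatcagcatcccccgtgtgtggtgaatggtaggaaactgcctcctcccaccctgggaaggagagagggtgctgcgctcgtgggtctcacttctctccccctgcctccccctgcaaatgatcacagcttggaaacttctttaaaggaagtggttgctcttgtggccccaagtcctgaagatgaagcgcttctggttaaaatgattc
A match to either strand was found in 6 of the 8 rule genes with a window (Aif1, C1qb, C1qc, Ctss, Fcrls and Trem2), and in 7639 of all 32851 windows, 23.3%. The first count is of genes and the second of windows, so no enrichment is read from them. The Mrc1 window held 3 matches and the Cst7 window held 0. A match is only a run of letters in this window and says nothing about binding. Spi1 itself was read at 332 CPM (95% interval 275 to 397) in relapsed members and 282 CPM (259 to 306) in primary members, where CPM is the UMIs of a gene per 1000000 UMIs summed over the members of a library.

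Members made up 0.383% (exact Clopper-Pearson 95% interval 0.258 to 0.546) of the cells of the relapsed library and 2.50% (2.19 to 2.84) of the primary library. What part the sort had in these shares was not tested. In the relapsed library the count of rule genes per cell fell into separate groups: 7595 cells had 0, 206 had 1, and 29 of the 30 members had 9 or more. In the primary library it ran on without a gap, with 1859 cells at 1 gene, 306 at 2, 48 at 3, 23 at 4, 13 at 5, 10 at 6, 17 at 7 and 24 at 8, and 176 of 227 members at 9 or more. Near the threshold, the single relapsed member with 6 rule genes had 7 UMIs of them, and the single relapsed cell with 5 had 6. The 10 primary members with 6 rule genes had a median of 14.5 UMIs of them, against 11 in the 13 cells with 5. Primary members with 6, 7 and 8 rule genes also held more RNA of the granule lineage list (medians of 0.289%, 0.283% and 0.107% of their UMIs) than those with 11 (0.0281%).

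**Figure D1:**
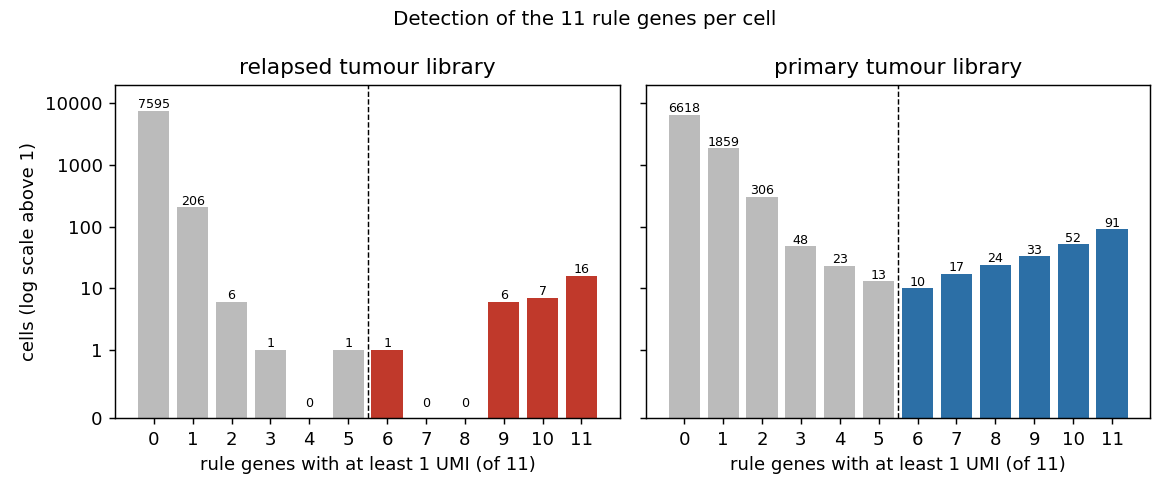
Cells of the relapsed library (left) and the primary library (right) by the number of the 11 rule genes with at least 1 UMI, on an axis that is logarithmic above 1. Coloured bars right of the dashed line are members (30 relapsed and 227 primary), and in the relapsed library 0 cells have 4, 7 or 8 rule genes.

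Relapsed members held 361630 UMIs in all, with a median of 11145.5 UMIs (3349 to 26044) and 2762 genes per cell. Primary members held 1971476 UMIs, with medians of 6441 UMIs (2220 to 41599) and 2108 genes. Median depth of all other cells was 7224 UMIs in the relapsed and 5408 in the primary library. Median mitochondrial shares of the members were 5.15% in the relapsed and 3.74% in the primary library, and ribosomal protein genes took 16.4% of relapsed and 19.5% of primary member UMIs. A doublet score set to mark 6% of each library marked 1 relapsed and 26 primary members. The libraries shared 93 cell barcodes, of which 0 belonged to relapsed and 3 to primary members. Ptch1, the gene of the deficiency, had 2 UMIs in relapsed and 107 in primary members, and 145 and 140 CPM (UMIs per 1000000 summed) in all other cells. Whether these reads come from an altered allele was not analysed here.

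The genes that chose the members are given as a description. The 3 chains of complement component C1q, which tags synapses and debris for removal, stood at the same order of level in both tumours. C1qa was at 5486 CPM (5247 to 5733) in relapsed and 5100 CPM (5001 to 5201) in primary members, C1qb at 5345 and 5310 CPM, and C1qc at 5309 and 4665 CPM. All 3 genes are neighbours on the minus strand of chromosome 4, between 136880129 and 136898803 on GRCm38. Tyrobp, the adaptor that passes on Trem2 signals, was found in all 30 relapsed and all 227 primary members. The receptor Trem2, which senses lipids, had 1919 CPM in relapsed and 1685 CPM in primary members. Csf1r had 664 and 518 CPM and the fractalkine receptor Cx3cr1 1117 and 661 CPM in relapsed and primary members. The remaining rule genes leaned the other way: the protease Ctss had 1219 CPM in relapsed and 2256 CPM in primary members (log2 ratio −0.89), P2ry12, a receptor for ADP that guides microglial processes, 141 and 233 CPM (−0.73), Aif1 899 and 1210 CPM (−0.43) and Fcrls 415 and 478 CPM (−0.21). Over the 11 rule genes the log2 ratio of relapsed over primary members had a median of 0.11 and a range from −0.89 to 0.76.

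UMIs of these genes outside the members differed between the libraries. In all other cells C1qa had 0.667 CPM in the relapsed and 9.85 CPM in the primary library, and a UMI of it was seen in 0.589% and 5.41% of those cells. Lyz2, the lysozyme of macrophages, had 1.70 CPM in other relapsed and 38.8 CPM in other primary cells, against 14108 CPM in relapsed and 10683 CPM in primary members. Shares of cells with a UMI are read below mainly where they lie far above those of other cells. Shares for cell cycle genes and for Prl are exceptions, as these genes stood higher in other cells.

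Set against all other cells of their own library, members had 289 of 1391 genes at least 2-fold higher (20.8%) and 517 lower (37.2%) in the relapsed library. In the primary library 216 of 1426 were at least 2-fold higher (15.1%) and 436 lower (30.6%). The rule chose the members on the same cells, so these counts describe them and test nothing. Genes outside the rule that stood furthest above other cells in both libraries were known myeloid genes. They included the lysophosphatidylserine receptor Gpr34 (202 CPM in relapsed and 286 CPM in primary members, against 0.0435 and 0.314 CPM in other cells), Ms4a7 (1283 and 792 CPM) and Igf1, the insulin-like growth factor (758 and 457 CPM). Others were the pore-forming Mpeg1, Ly86, AF251705, the low-affinity IgG receptor Fcgr3, the lysosomal sialomucin Cd68, Wfdc17, Laptm5, Lyz2, the chemokine Cxcl16, the receptor chain Fcer1g, Ms4a6c and Gngt2. All 15 were at least 221-fold above other cells in both libraries.

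Genes whose log level followed the number of rule genes most closely over all cells were Fcer1g (Pearson r of 0.906 over 7839 relapsed and 0.844 over 9094 primary cells), Laptm5 (0.888 and 0.817), Cd68 (0.815 and 0.818), Fcgr3, Lyz2, the cathepsin Ctsh, AF251705, Mpeg1, Rgs10 and Igf1 (0.860 and 0.737). Cells of a library share its depth and its free RNA, and most of them have 0 of these genes, so r is a description.

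Several defining markers of lymphocytes and dendritic cells were at 0 in the members. Cd3e of T cells and Cd79a of B cells had 0 UMIs in both libraries, and so had Flt3 and Xcr1 of dendritic cells. Their lists were not at 0 as a whole. Genes of T and NK cells summed to 44.2 CPM in relapsed and 37.5 CPM in primary members, against 0.261 and 2.27 CPM in other cells. Genes of B cells summed to 11.1 and 11.2 CPM, and dendritic cell genes to 2.77 and 14.7 CPM, in relapsed and primary members. Ly6c2, a marker of inflammatory monocytes, had 0 UMIs in relapsed and 5 in primary members, and Ccr2, the chemokine receptor of blood monocytes, had 2 and 43. Some other genes of the 16 on the monocyte list were read mostly in primary members, which held more UMIs in all (1971476 against 361630). Tgfbi had 15 UMIs in relapsed and 188 in primary members, the fibronectin gene Fn1 1 and 166, and S100a6 0 and 107. Others did not lean that way. Among members with under 20 UMIs of H2-Aa, H2-Ab1 and H2-Eb1, Itgal had 19.9 CPM in relapsed and 17.6 CPM in primary members. Emilin2 had 19.9 and 10.4 CPM there, and Itga4 17.0 and 18.1 CPM. In that list 8 genes had 0 UMIs in relapsed members, and Lyz2 alone passed the level filter used below (log2 ratio of relapsed over primary members 0.40). S100a8 of neutrophils had 2 and 52 UMIs. Vessel markers were also sparse. The 10 endothelial genes had 7 UMIs in relapsed (19.4 CPM) and 39 in primary members (19.8 CPM). The 8 mural and fibroblast genes had 1 and 18 UMIs (2.77 and 9.13 CPM). Markers of tumour and glial cells were present at a low level. The granule lineage list of 20 genes summed to 465 CPM (397 to 540) in relapsed and 1370 CPM (1319 to 1423) in primary members, against 5413 and 5823 CPM in all other cells. Astrocyte genes summed to 69.1 and 297 CPM, and oligodendrocyte lineage genes to 91.3 and 210 CPM, in relapsed and primary members.

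Of 1231 genes with a mean of at least 100 CPM over the 2 libraries, 77 were at least 2-fold higher (6.26%) and 79 at least 2-fold lower (6.42%) in relapsed than in primary members. The median log2 ratio was −0.02. The counts were 92 higher and 122 lower with mitochondrial and ribosomal protein UMIs left out of the totals, and 46 higher and 87 lower without the top cell of each gene. Among all other cells 38 of 1542 genes (2.46%) were at least 2-fold higher in the relapsed library and 21 (1.36%) lower. Of the 77 higher genes 14 were also at least 2-fold higher in other cells, and of the 79 lower genes 13 were also lower there. While 67 of the 77 stood at least 2-fold above other cells, 18 of the 79 did so; each count was taken in the library where the members were higher. The genes named first below were taken from those 67 and 18, as the 12 highest and 12 lowest ratios.

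**Figure D2:**
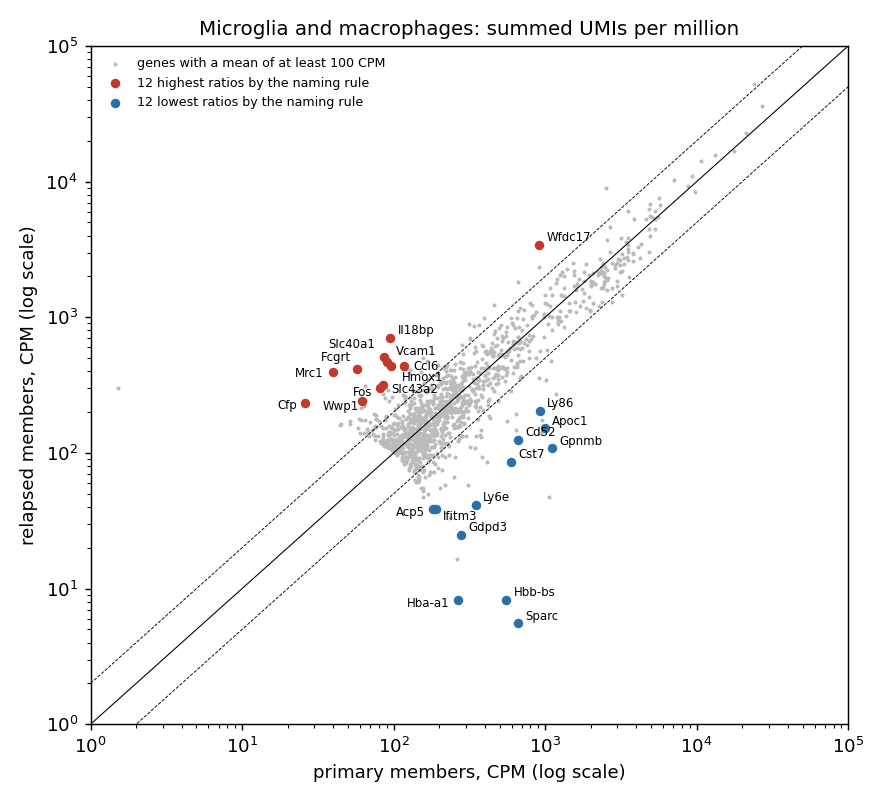
Level of each of 1231 genes in relapsed members (vertical, CPM, log scale) and primary members (horizontal, CPM, log scale), with the line of equal level and dashed lines at 2-fold. Red points are the 12 highest and blue points the 12 lowest ratios among genes at least 2-fold above other cells, and libraries with 0 UMIs are drawn at 3 UMIs.

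Mrc1 had the highest ratio among the named genes. This gene, the mannose receptor of tissue macrophages (chromosome 2, 14229392 to 14332057), had 395 CPM (333 to 466) in relapsed and 39.6 CPM (31.3 to 49.4) in primary members, a log2 ratio of 3.32 (95% counting interval 2.91 to 3.74). It was read in 23 of 30 relapsed and 43 of 227 primary members, and in 0.0128% of other relapsed and 0.0113% of other primary cells. With every member thinned to 2000 UMIs, 43.3% of relapsed (25.5 to 62.6) and 8.37% of primary members (5.11 to 12.8) had a UMI of it. Properdin, Cfp, which stabilises the alternative complement pathway, had 232 and 25.9 CPM (log2 ratio 3.17). Il18bp, which binds and blocks interleukin 18, had 702 and 95.4 CPM (2.88), with 25.6% of its relapsed UMIs in 1 cell.

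Fcgrt, the neonatal Fc receptor that recycles IgG, had 418 CPM in relapsed and 57.3 CPM in primary members (log2 ratio 2.86). The iron exporter ferroportin, Slc40a1, had 509 and 86.7 CPM (2.55), and haem oxygenase Hmox1 434 and 95.9 CPM (2.18), with 38.9% of its relapsed UMIs in 1 cell. Both genes act on iron from haem taken up by macrophages. The adhesion molecule Vcam1, which splenic macrophages of the red pulp also carry, had 470 and 90.8 CPM (2.37). Wwp1, a ubiquitin ligase, the amino acid transporter Slc43a2, Wfdc17 (3404 and 915 CPM), the chemokine Ccl6 (434 and 117 CPM) and the immediate early gene Fos followed, with log2 ratios from 1.98 to 1.87. Fos was also higher in other cells of the relapsed library (43.2 CPM) than of the primary library (7.74 CPM). Sepp1, the selenium carrier, which was named after its values were seen, had 9045 CPM in relapsed and 2522 CPM in primary members (1.84).

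The lowest ratio among the named genes was that of Sparc (chromosome 11, 55394500 to 55423183), a matrix protein that adult microglia also make. Relapsed members had 2 UMIs of it, 5.53 CPM (0.67 to 19.98), each in a different cell, and primary members had 1298 UMIs, 658 CPM (623 to 695), in 105 of 227 cells. The log2 ratio was −6.90 (−9.94 to −5.04). In other cells Sparc ran the other way, with 71.6 CPM in the relapsed and 28.7 CPM in the primary library. Thinned to 1000 UMIs, 0 of 30 relapsed members (0 to 11.6%) had a UMI of it, and 65 of 227 primary members (28.6%) did.

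Gpnmb and Cst7, which stand on the list of disease-associated genes, were also among the 12 lowest. Gpnmb, a glycoprotein of lipid-laden phagocytes, had 108 CPM (76.7 to 147) in relapsed and 1117 CPM (1071 to 1165) in primary members (log2 ratio −3.37), and was read in 10 of 30 and 104 of 227 cells. Cst7, an inhibitor of cathepsins, had 85.7 and 595 CPM (−2.80), and Apoc1, an apolipoprotein, 152 and 999.8 CPM (−2.72). Acp5, a lysosomal acid phosphatase, had 38.7 and 181 CPM (−2.22). Gdpd3 (−3.49), Ly6e (−3.07), the lymphocyte surface peptide Cd52 (−2.42), the antiviral Ifitm3 (−2.29) and Ly86 (−2.17), the partner of Cd180, completed the named low genes. Ly86 had 205 CPM in relapsed and 921 CPM in primary members and was still read in 26 of 30 and 202 of 227 cells.

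Haemoglobin RNA was the remaining low item. Hbb-bs had 0 UMIs in relapsed and 1091 in primary members, at least 66.7-fold lower with 3 UMIs as the limit that a count of 0 over the relapsed members allows, and Hba-a1 had 0 and 522 UMIs, at least 31.9-fold lower. The primary UMIs of Hbb-bs sat in 15 of 227 cells, and all other relapsed cells held 2.03 CPM of it and all other primary cells 82.3 CPM. Among the 125 primary members with under 0.05% granule lineage UMIs, 7 UMIs of Hbb-bs and 1 of Hba-a1 remained. The part of red cell RNA in other ratios was not tested.

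Genes of homeostatic microglia were on the whole lower in the relapsed members. Of 18 genes on the microglia list, 6 passed the level filter, 2 of them at least 2-fold lower (Sparc and Selplg) and 0 higher, with a median log2 ratio of −0.63 against −0.02 over all genes. Gpr34 had a log2 ratio of −0.50 (−0.87 to −0.15), Olfml3 of −0.23 and Rgs10 of −0.16, and the last 2 had intervals that reach 0. Selplg, the ligand of selectins, had 71.9 CPM in relapsed and 156 CPM in primary members (−1.11).

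Below the filter, Tmem119 had 19 UMIs in relapsed (52.5 CPM) and 234 in primary members (119 CPM), a log2 ratio of −1.18 (−1.93 to −0.50). Sall1, the transcription factor that marks microglia apart from other macrophages, had 0 UMIs in relapsed and 50 in primary members, and 3.67 and 8.85 CPM in other cells. The lens crystallin Crybb1, a gene of young microglia, had 1 and 108 UMIs (log2 ratio −4.31, −9.63 to −1.80), and Lag3 had 3 and 129 UMIs. P2ry13 and Slco2b1 had slightly more CPM in relapsed members (log2 ratios 0.49 and 0.39), both with intervals that include 0.

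Border macrophage genes leaned the other way. Of 15 listed, 6 passed the filter, 4 of them at least 2-fold higher (Mrc1, Folr2, Stab1 and Dab2) and 0 lower, with a median log2 ratio of 1.54. The folate receptor Folr2 had 163 CPM in relapsed and 45.1 CPM in primary members (1.85), the scavenger receptor Stab1 409 and 128 CPM (1.68) and the endocytic adaptor Dab2 257 and 97.4 CPM (1.40). Ms4a7 (0.70) and the transcription factor Maf (0.63) were within 2-fold.

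Under the filter, Cbr2, a carbonyl reductase, had 177 CPM in relapsed and 11.2 CPM in primary members (log2 ratio 3.99, 3.27 to 4.76), and the platelet factor Pf4 138 and 26.4 CPM (2.39). F13a1, a coagulation factor subunit of macrophages, had 102 and 9.64 CPM (3.41), in 5 relapsed and 9 primary cells. The genes that mark perivascular macrophages most closely stayed near 0 in the members of both tumours. Lyve1, Cd163 and Cd209f had 1 UMI each among 361630 in relapsed members, and 14, 9 and 6 UMIs among 1971476 in primary members. Clec12a and Mgl2 of the same list did not lean to the relapsed tumour. Among members with under 20 UMIs of H2-Aa, H2-Ab1 and H2-Eb1, Clec12a had 19.9 CPM in relapsed and 36.8 CPM in primary members, and Mgl2 0 and 17.0 CPM. The border list took a median of 0.262% of the UMIs of a relapsed and 0.0811% of those of a primary member, and the microglia list 0.248% and 0.465%.

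**Figure D3:**
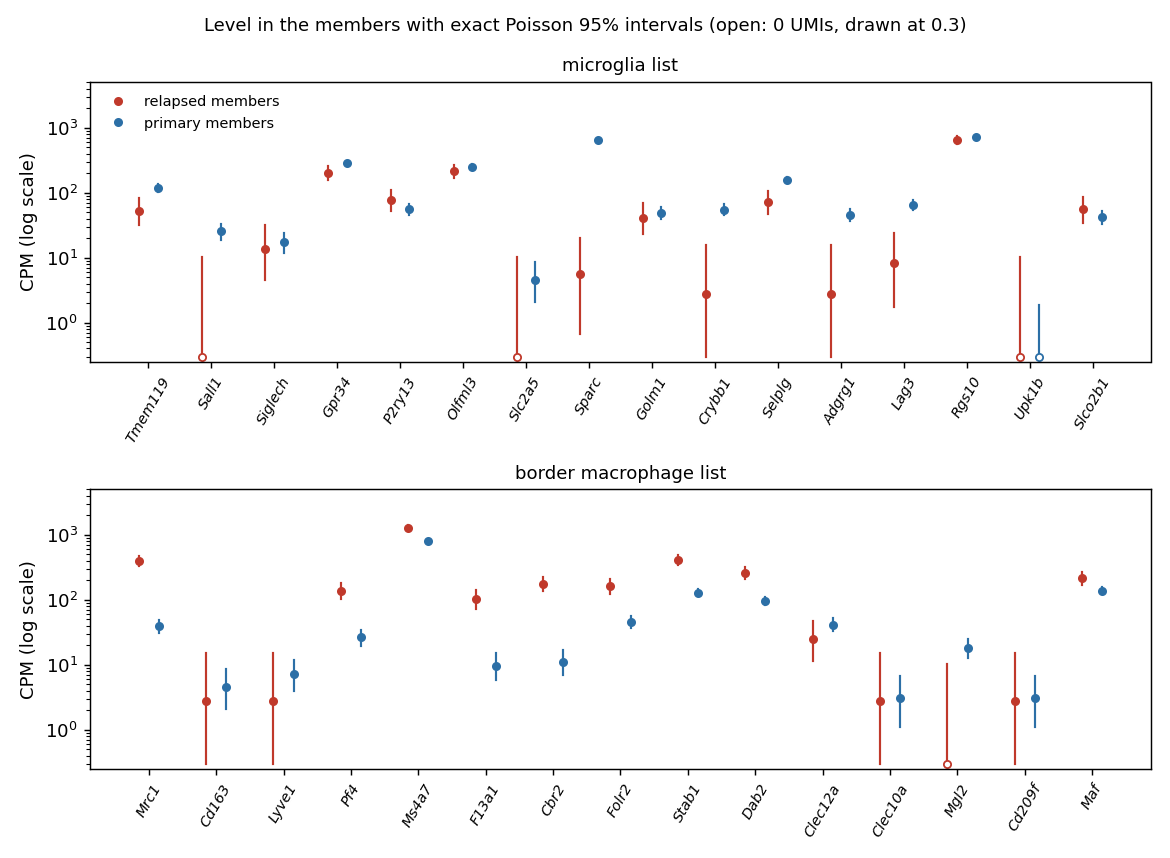
Level (CPM, log scale) of genes on the microglia list (top) and the border macrophage list (bottom) in relapsed members (red, left of each pair) and primary members (blue), with exact Poisson 95% intervals. Open points have 0 UMIs. Sparc, Crybb1, Adgrg1 and Lag3 are far lower in relapsed members, and Mrc1, F13a1 and Cbr2 far higher.

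Whether these genes marked separate cells was read per cell. At least 2 genes of the border macrophage or monocyte lists had a UMI in 29 of 30 relapsed and 210 of 227 primary members (96.7% and 92.5%), so that cut left few cells out. A narrower set of 7 genes (Mrc1, Cd163, Lyve1, Pf4, F13a1, Cbr2 and Folr2) was therefore used as well, chosen after the values were seen. At least 2 of the 7 had a UMI in 22 of 30 relapsed members (73.3%, 54.1 to 87.7) and 33 of 227 primary members (14.5%, 10.2 to 19.8). Thinned to 2000 UMIs per cell, the shares were 26.7% (12.3 to 45.9) and 3.52% (1.53 to 6.83). Thinned to 1000 UMIs they were 10% (2.11 to 26.5) and 2.64% (0.976 to 5.66), with intervals that overlap.

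Microglial genes were read beside these genes, of which Tmem119 and Olfml3 are outside the rule and Fcrls and P2ry12 are rule genes. In the cells with 2 to 4 of the 7, Tmem119 had 54.1 CPM in 19 relapsed and 147 CPM in 29 primary members, and Olfml3 256 and 242 CPM. In the cells with 0 or 1 of the 7, Tmem119 had 77.5 CPM in 8 relapsed and 114 CPM in 194 primary members, and Olfml3 96.9 and 258 CPM. Relapsed values of Tmem119 in both classes, and of Olfml3 in the 8 cells, rest on few UMIs. No difference between the relapsed classes is read from them. At least 5 of the 7 genes were found in 3 relapsed (10%) and 4 primary members (1.76%). Those 4 primary cells held all 14 UMIs of Lyve1, all 9 of Cd163 and all 6 of Cd209f in the primary members, and had 0 UMIs of Fcrls, Tmem119 and Gpnmb. The 3 relapsed cells held 26 of the 37 UMIs of F13a1 and 26 of the 59 of Folr2, and had 20 UMIs of Fcrls and 5 of P2ry12, with 1 of Lyve1 and 0 of Cd163 and Cd209f. Outside those 3, the 19 relapsed cells with 2 to 4 of the genes still had 360 CPM of Mrc1, and the 8 with 0 or 1 had 388 CPM. Lyve1, Cd163, F13a1, Folr2 and Mrc1 are among the 7 genes that set these classes. Their levels by class follow in part from that choice and test nothing. Cd209f is not among the 7.

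**Figure D4:**
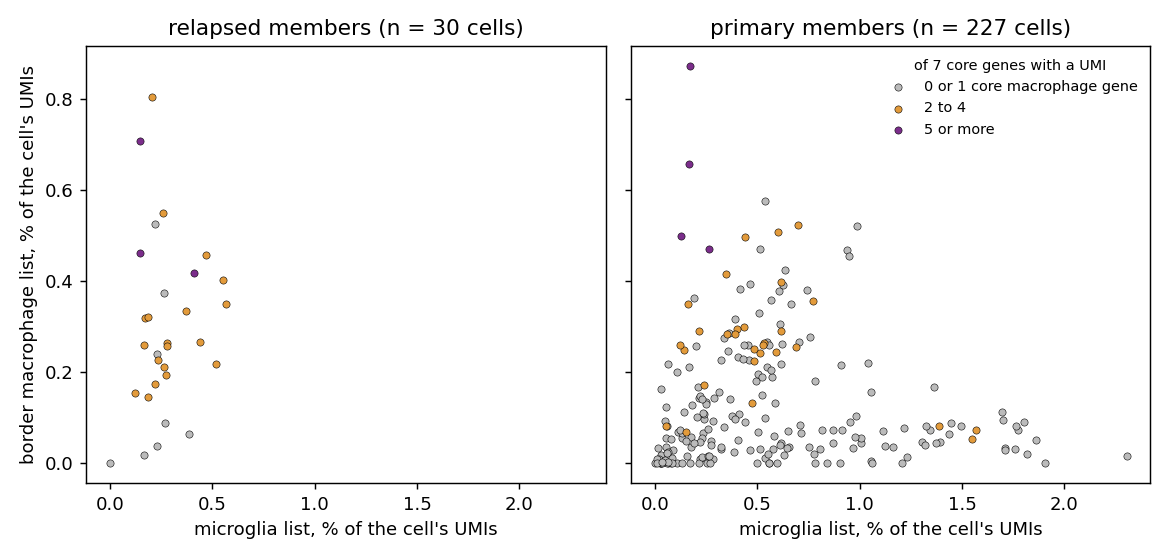
Share of each cell's UMIs from the border macrophage list (vertical, %) against the microglia list (horizontal, %) in 30 relapsed members (left) and 227 primary members (right), 1 point a cell. Colours give how many of 7 core macrophage genes had a UMI. Cells with over 1% of UMIs from the microglia list are found among the primary members only, and the purple cells (3 relapsed, 4 primary) sit on the left.

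Within the primary tumour, members were also grouped by UMIs of Sparc and Gpnmb, a split made after the values were seen, whose classes differ in depth. Sparc without Gpnmb was read in 57 cells, Gpnmb without Sparc in 56, both in 48 and neither in 66, at median depths of 5270, 7400, 11524.5 and 5739 UMIs. The 57 cells with Sparc alone had the higher levels of homeostatic genes: 527 CPM of P2ry12, 76.5 of Sall1, 35.5 of Siglech and 210 of Tmem119, against 120.5, 1.88, 3.77 and 109 CPM in the 56 cells with Gpnmb alone. They had 243 CPM of the galectin Lgals3, 1188 of the lipid carrier Fabp5 and 172 of Ms4a7, against 2410, 3321 and 1399 CPM in cells with Gpnmb alone. Cst7, a gene of diseased microglia, went with Sparc rather than with Gpnmb, at 1341 CPM in cells with Sparc alone and 153 CPM in cells with Gpnmb alone. Spp1, the secreted osteopontin, had 2657 CPM in cells with both, 2210 with Gpnmb alone and 219 with Sparc alone. In the relapsed tumour 18 of 30 members had neither gene, 10 had Gpnmb alone, 2 had Sparc alone and 0 had both.

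Genes of the response to disease did not move as 1 block between the tumours. Of 19 listed genes that were measured, 15 passed the filter, 4 of them at least 2-fold lower in relapsed members (Gpnmb, Cst7, Cd9 and Ctsl), 1 higher (Ccl6) and 10 within 2-fold, with a median log2 ratio of −0.28. Apoe, the lipid carrier, had 35777 CPM in relapsed and 27049 CPM in primary members (log2 ratio 0.40), and the protease Ctsd 16838 and 17747 CPM (−0.08). The tetraspanin Cd9, which tumour cells express as well, had 141 and 939 CPM (−2.74), and 597 and 688 CPM in other cells. Spp1 had 1095 and 1589 CPM (−0.54), the TAM receptor Axl 299 and 169 CPM (0.82). Itgax, the integrin CD11c, had 4 UMIs in relapsed and 79 in primary members.

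Lysosomal and phagocytic genes were nearly all within 2-fold. Of 18 listed, 15 passed the filter, 1 of them at least 2-fold higher (Gas6, at 387 CPM in relapsed and 126 CPM in primary members, log2 ratio 1.62), 0 lower, a share close to the 6.26% of all genes. The median log2 ratio was 0.45, and was 0.17 among members with under 0.05% granule lineage UMIs. Gas6 is the ligand that bridges dying cells to the receptors Axl and Mertk. Psap, the precursor of sphingolipid activators, had 4621 and 2691 CPM (0.78) and Ctsz 1961 and 2582 CPM (−0.40). Msr1, a scavenger receptor under the filter, had 127 and 38.0 CPM (1.74).

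A list of alternative activation and repair had 4 of 14 genes past the filter, 3 of them at least 2-fold higher in relapsed members (Vcam1, Hmox1 and the galectin Lgals1) and 0 lower, with a median log2 ratio of 1.77. Lgals1 had 2348 CPM in relapsed and 912 CPM in primary members (1.36). The classical members of that list were scarce among 361630 UMIs of relapsed and 1971476 UMIs of primary members. Arg1 had 8 UMIs in 2 relapsed cells and 21 in 3 primary cells, Retnla 0 and 9, and Ccl22 0 in both. Ccl24, a chemokine for eosinophils, had 13 UMIs in relapsed and 4 in primary members.

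Fc receptor and adaptor genes had 8 of 15 past the filter, 1 at least 2-fold higher (the inhibitory receptor Fcgr2b, 260 CPM in relapsed and 119.7 CPM in primary members, log2 ratio 1.12) and 1 lower (Ly86), with a median log2 ratio of 0.16. Over all genes 6.26% were higher and 6.42% lower, and counts of 1 in this and the lists below are to be read beside those shares. Complement and integrin genes had 5 of 12 past the filter, 1 higher (Cfp) and 0 lower, with a median of −0.06. Under the filter, the complement receptor subunit Itgam had 27.7 and 91.3 CPM (−1.72) and the anaphylatoxin receptor C5ar1 58.1 and 11.7 CPM (2.32) in relapsed and primary members.

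Secreted signals were sparse. Of 20 cytokine and chemokine genes 4 passed the filter, 1 of them at least 2-fold higher (Nfkbia, an inhibitor of NF-kB, 183 CPM in relapsed and 88.8 CPM in primary members) and 0 lower, with a median log2 ratio of 0.23. Ccl3 had 133 and 206 CPM (−0.64) and Ccl4 124 and 126 CPM (−0.02), with 40% of its relapsed UMIs in 1 cell. Tnf had 6 UMIs among 361630 of relapsed and 18 among 1971476 of primary members, a larger share in the relapsed members. Il6 had 0 in both, and 83.3% of the 24 relapsed UMIs of Il1b came from 1 cell. Cxcl2 had 0 and 83 UMIs.

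Among 16 growth factor genes, Igf1 and Tgfb1 passed the filter. Igf1 had 758 CPM (671 to 853) in relapsed and 457 CPM (428 to 488) in primary members (log2 ratio 0.73), and was read in 27 of 30 and 164 of 227 cells. Tgfb1, which keeps microglia in their resting state, had 241 and 301 CPM (−0.32). Vegfa had 0 and 4 UMIs, Il10 0 and 1, and Bdnf and Areg 0 in both. Of 21 cytokine and pattern receptors 4 passed the filter, all within 2-fold, with a median log2 ratio of −0.36; Tgfbr1 had 136 and 190 CPM (−0.49) and Ifnar2 174 and 143 CPM (0.29). Purinergic and surface sensing genes (6 of 13 past the filter, median 0.28) and transcription factors (6 of 18, median 0.31) were all within 2-fold too. Irf8, an interferon regulatory factor that microglia need, had 235 and 287 CPM (−0.29). Bhlhe41, a regulator of microglia and lung macrophages under the filter, had 11 UMIs in relapsed and 205 in primary members (−1.77).

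Genes induced by interferon were low in both tumours. Of 21 listed 3 passed the filter, 1 at least 2-fold lower (Ifitm3) and 0 higher, with a median log2 ratio of −0.02; Bst2 had 191 and 193 CPM in relapsed and primary members. Isg15 had 1 UMI in relapsed and 64 in primary members, and Irf7 0 and 32. Immediate early and stress genes had 7 of 20 past the filter, 1 higher (Fos, 299 and 81.7 CPM) and 1 lower (the chaperone Hsp90aa1, 111 and 321 CPM, log2 ratio −1.54), with a median of −0.01. It was far higher in other cells of both libraries (1000 and 1067 CPM). Glycolytic and hypoxia genes had 9 of 22 past the filter, all within 2-fold, with a median of −0.06; Gapdh had 2154 and 1800 CPM (0.26) and Aldoa 429 and 647 CPM (−0.59).

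**Figure D5:**
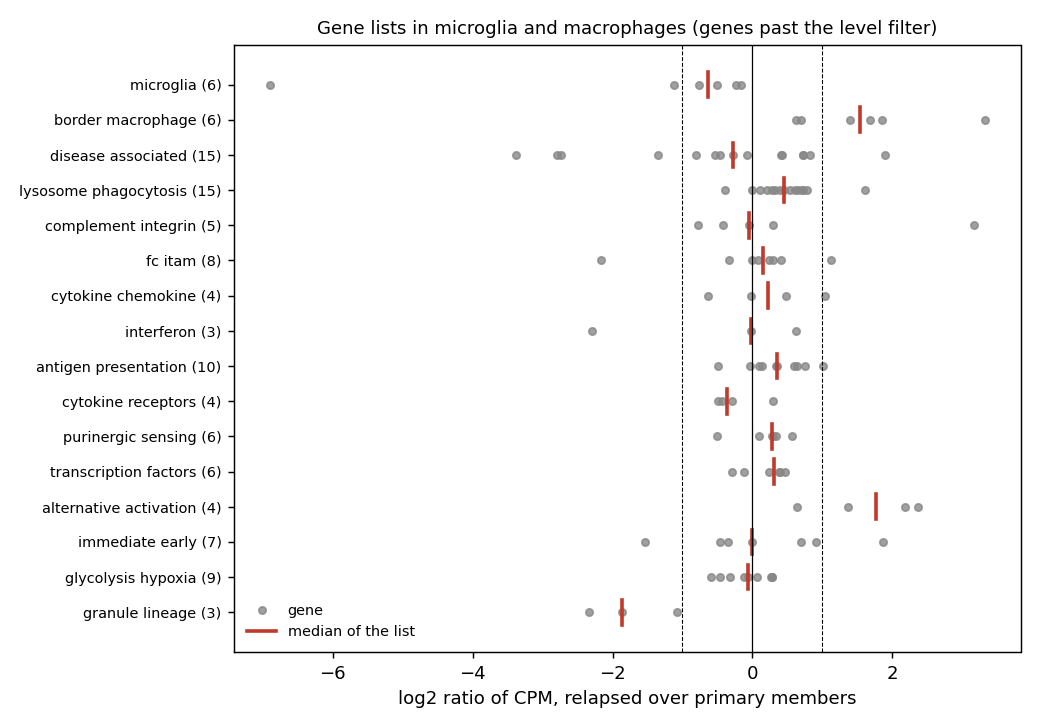
Log2 ratio of CPM in relapsed over primary members (horizontal) for each gene past the level filter, by list, with the number of such genes in brackets. Points are genes, red bars are list medians and dashed lines mark 2-fold. The border macrophage and alternative activation medians lie above 1, and the granule lineage median below −1.

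Antigen presentation by MHC class II rested on very few cells. Of 16 listed genes 10 passed the filter, 1 at least 2-fold higher (H2-Eb1, 423 CPM in relapsed and 211 CPM in primary members, log2 ratio 1.00) and 0 lower, with a median log2 ratio of 0.35, which was −0.14 without the top cell of each gene. In the relapsed tumour 2 members held 433 of the 446 UMIs of H2-Aa, H2-Ab1 and H2-Eb1 (97.1%), with 260 and 173 UMIs, and the next cell had 3. In the primary tumour 18 members had at least 20 such UMIs, a cut chosen after the values were seen, and the top 2 held 24.2% of 1672. Without the cells at or above it, H2-Aa had 8.51 CPM in relapsed and 39.5 CPM in primary members, H2-Eb1 2.84 and 15.4 CPM, and the invariant chain Cd74 14.2 and 183 CPM. The direction was thus reversed for these genes below this cut, which was itself made on H2-Aa and H2-Eb1 among others. Shares of cells did not settle it. Members with 0 such UMIs were 63.3% of relapsed and 78.0% of primary members. Thinned to 2000 UMIs they were 86.7% (69.3 to 96.2) and 83.7% (78.2 to 88.3).

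The 2 relapsed cells had 69 UMIs of C1qa and 17 of Ms4a7, and 0 of Mrc1 and P2ry12. The 18 primary cells held 34 of the 43 UMIs of Ccr2, 5 of P2ry12 and 5 of Sparc. Dendritic cell markers Flt3 and Xcr1 had 0 UMIs in both groups of cells. Batf3 and Bst1 of the same list had 2 UMIs each in the 18 primary cells and 0 in the 2 relapsed cells. MHC class I genes were broader, with B2m in all 30 relapsed and all 227 primary members at 3858 and 3524 CPM (log2 ratio 0.13), and H2-K1 at 1161 and 687 CPM (0.76).

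Genes of the cell cycle were read less in members than in all other cells of their library. The 21 listed genes summed to 332 CPM (275 to 397) in relapsed and 920 CPM (878 to 963) in primary members, against 3232 and 3200 CPM in other cells. At least 5 of them had a UMI in 3 of 30 relapsed members (10%, 2.11 to 26.5) and 64 of 227 primary members (28.2%, 22.4 to 34.5). These shares were not set against those of other cells, in which the genes stood higher. Of the 64 primary cells, 22 had under 0.05% granule lineage UMIs, and the median granule share was 0.143% in the 64 and 0.0352% in the rest. Pcna, the DNA clamp of replication, had 30.4 and 98.9 CPM and Top2a 27.7 and 68.0 CPM in relapsed and primary members. What part free RNA or doublets with tumour cells had in these counts was not tested.

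Within the primary tumour, the 210 members with at least 2 border macrophage or monocyte genes were set beside the other 17. Of 1361 genes, 177 were at least 2-fold higher (13%) and 277 lower (20.4%) in the 210. Among the highest outside the lists were Gpnmb (2202 UMIs against 0), H2-Aa (676 against 1), H2-Ab1, Anxa5, Hba-a1, Crip1, Cd74, Tmem86a and Ccl3. The lowest were Pbk, Fam60a, Gm17322, Cdca3, Ccnb1, H2afx, Cdca8, Fxyd6, Cdk1 and Mycn, with 53.0 CPM of Mycn, a driver of granule precursor growth, in the 210 and 308 CPM in the 17. The microglial genes Olfml3 (255 and 213 CPM), Sparc (661 and 604 CPM) and Tmem119 (119.8 and 94.7 CPM) were of like level in both.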

How the data were processed

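Droplet single-cell RNA libraries of 1 relapsed and 1 primary medulloblastoma were used; 6 bulk astrocyte libraries were not analysed here. The authors deposited UMI counts, which are whole numbers, for each gene in each barcode. Per the submitters' processing notes, Cell Ranger, STAR, Seurat and the build mm10 were used, with no versions or roles given; for the filtering of barcodes a method is not given in the sources used here. Deposited were 7852 relapsed barcodes with 69403567 UMIs and 9164 primary barcodes with 56332247 UMIs; 7839 and 9094 cells with at least 500 genes and at most 10% mitochondrial UMIs were kept. Members were set by the rule of 6 of 11 genes. The members and the gene lists were chosen with earlier results of these data known.

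Counts were summed over the members of a library and given as CPM with exact Poisson 95% intervals; shares have exact Clopper-Pearson intervals, and ratios conditional exact intervals. Ratios were read for genes with a mean of at least 100 CPM over the 2 libraries, with 2-fold as the size that counts. A level against 0 UMIs used 3 UMIs per library. With 1 library per group no test was possible. Named genes were the 15 furthest above other cells (at least 200 CPM), the 12 highest and 12 lowest ratios between the tumours, the 10 highest and 10 lowest ratios between primary members with and without macrophage genes, the 10 most correlated with the rule, and 4 per list by level or ratio; other genes of the lists were named after their values were seen. Doublets were scored with Scrublet in scanpy 1.11.5; its automatic threshold marked 0 cells in both libraries and so had not worked, the top 6% were marked, and none was removed from the values above. The computation used Python 3.11.15 with numpy 2.4.6, pandas 2.3.3 and scipy 1.17.1, and was checked on simulated counts with known folds. Promoters came from RefSeq (GRCm38.p6) and gene positions from GENCODE on the same build, in which all 466 IDs looked up were matched. A few genes that these rules name are not reported here.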

Additional observations from a re-analysis of the deposited data

Results flagged for a closer look

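For Sparc the members stood on opposite sides of the other cells in the 2 tumours, a difference that was not tested because each tumour has 1 library. The log2 ratio of members over other cells was −3.70 in the relapsed and 4.52 in the primary library, a difference of −8.21.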

How the results depend on the processing

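No paired analysis was possible because each tumour has 1 library. For the 24 genes with the highest and lowest ratios, 283 ratios recomputed under 12 alternatives were counted. All 283 kept the sign, and 280 were still at least 2-fold in the same direction. A ratio of opposite sign that rested on a library at 0 UMIs was left out of the 283. Agreement in sign was therefore fixed in part by that rule. Over shares, counts and list medians, 243 recomputed values stayed close to those reported and 53 moved. Among those that moved, the medians of the Fc receptor, interferon, antigen presentation, purinergic and immediate early lists changed sign under at least 1 alternative, with the values given below; the cause of each move was not tested beyond the fewer cells, genes or UMIs that an alternative leaves. The alternatives with at least 9 rule genes, with under 0.05% granule lineage UMIs, without the top cell of each gene, with the 7 core genes and with thinning to 2000 UMIs were chosen after seeing the data.

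The share of members was 0.191% in the relapsed library with at most 5% mitochondrial UMIs, and 1.98% in the primary library with cells thinned to 1000 UMIs. The 77 higher and 79 lower genes became 177 and 155 with thinning, 154 and 206 at a mean of at least 50 CPM, 31 and 35 at 200 CPM, 183 and 193 at 1.5-fold, and 28 and 31 at 3-fold. With mitochondrial and ribosomal protein UMIs left out of the totals 122 were lower, and without the top cell of each gene 46 were higher. At least 2 of 7 core genes gave 73.3% of relapsed and 14.5% of primary members in place of the planned class, and at least 5 gave 10% and 1.76%. For the primary members that class also gave 80.2% with at least 3 genes, 69.6% with at least 2 border genes, 62.6% thinned to 1000 UMIs and 77.1% thinned to 2000.

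List medians moved as follows. With thinning to 1000 UMIs the microglia median was −1.22, Fc receptors −0.28, cytokines 0.66, interferon 0.63, antigen presentation 0.65, purinergic genes −0.44, immediate early genes 0.92 and the granule lineage −0.92. With only members under 0.05% granule lineage UMIs the border macrophage median was 1.07, disease-associated −0.49, lysosome 0.17, interferon −0.45, antigen presentation −0.0598, alternative activation 1.13 and glycolysis −0.38. With the mean of each cell's CPM, microglia gave −0.90, border macrophages 1.11, lysosome 0.26, cytokines 0.63 and the granule lineage −1.18. Without the top cell of each gene, disease-associated gave −0.45, lysosome 0.27, antigen presentation −0.14 and alternative activation 1.40. At a mean of at least 200 CPM, complement gave −0.77, interferon 0.62, alternative activation 2.18 and immediate early genes −0.77, the last of which gave 0.69 at 50 CPM. Lysosome gave 0.24 with at least 9 rule genes, and alternative activation 1.32 without the 10% of members with most granule lineage RNA. In the 30 relapsed members, with 361630 UMIs, 3 UMIs stand for 8.30 CPM.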

Other observations

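Prl, the hormone prolactin, had 109 UMIs (301 CPM) in 27 of 30 relapsed members, 52.3% of them in 1 cell, and was read in 56.3% of other relapsed cells at 4793 CPM. Primary members had 0 UMIs of it, and other primary cells had 20 UMIs, 0.369 CPM.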
